A study of Danio rerio with 4 samples.

Results

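Neuropeptide B (npb) and cocaine- and amphetamine-regulated transcript 3 (cart3) are 2 neuropeptide precursor genes that were chosen by their values in these same samples: in earlier results npb was among the largest falls, and cart3 among the largest rises, of nr2f mutant cells. They are 2 of 26267 genes with a value in the deposited table. The table lists each as 1 transcript of 1 gene ID, ENSDART00000113930 of ENSDARG00000078828 for npb and ENSDART00000052029 of ENSDARG00000035852 for cart3, so gene and transcript values are the same. The name cart3 is used here as the table uses it. RefSeq gives cart1 as an older name of cart3, and cart3 as an older name of cart4.

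RNA came from zebrafish (Danio rerio) cells sorted for the sox10:DsRed reporter, which marks neural crest, at 20 hours post fertilization (hpf). The mutant group held 2 samples, whose titles name both nr2f2 and nr2f5; their genotype field lists nr2f5 as mutated and leaves nr2f2 unknown. The wild-type group also held 2 samples. Each sample pooled embryos; the mutant pools held 88 and 35 and the wild-type pools 110 and 120, with no replicate number given for these figures, and the labels call the samples of a group biological replicates. The comparison addresses how Nr2f nuclear receptors act on cranial ectomesenchyme, the crest-derived mesenchyme of the face. Abundances are TPM, a transcript abundance scaled to 1 total in every sample, which are corrected for transcript length and keep no read depth, so a value of 0 is only described as listed at 0.

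Neuropeptides are short secreted signals that are cut from longer precursor proteins by prohormone convertases, trimmed by carboxypeptidases, often amidated at one end, and stored in dense-core vesicles. In mammals, neuropeptide B acts through G protein-coupled receptors of the Npbwr family, and CART peptides act in the brain and gut in feeding, reward and stress. Both are best known from neurons. The study sorted neural crest cells, whose derivatives include peripheral neurons and glia.

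The gene mutated in the mutant samples, nr2f5, stood at 46.5 and 47.1 TPM in the mutants, against 579 and 559 TPM in the wild type, a log2 fold change of -3.58 ± 0.12 (limma with Benjamini-Hochberg adjustment, SE, n = 2 per group, adjusted p = 1.1e-06). The gene nr2f2 stood at 67.2 and 51.7 TPM in the mutants and 73.5 and 59.3 TPM in the wild type (log2 fold change -0.16 ± 0.20, limma adjusted p = 0.67; the sign was positive under median-ratio scaling and without mutant replicate 2). The crest transcript crestin and the reporter's own gene sox10, both chosen after their values were seen, were abundant in all 4 samples, at 305 and 314 TPM for crestin in the mutants and 187 and 145 TPM in the wild type, and at 590 and 461 TPM for sox10 in the mutants and 411 and 318 TPM in the wild type. The 16 neural crest markers together summed to 3461 and 3528 TPM in the mutants, against 3481 and 3302 TPM in the wild type, and none was at 0 in all samples. All 16 were tested, and sox10 did not pass (limma adjusted p = 0.10). It did pass under median-ratio scaling (limma adjusted p = 0.033) and with replicate number as a block (limma adjusted p = 0.026). Of the 16, 3 rose and 4 fell, where 1.13% of all tested genes rose and 2.95% fell, and the median difference was 0.38. Those called in either direction were foxd3, crestin, snai2, twist1a, sox9a, inka1a and dlx2a, and the differences of the 16 ran from -1.21 to 0.91. Without overlap, the mutants were higher for 8 of the markers and lower for 7, against 18.2% and 34.9% of all tested genes. Among them crestin rose (log2 fold change 0.91 ± 0.14, limma adjusted p = 0.0088); leaving out either mutant sample ended the call, at an adjusted p of 0.077 (replicate 1) and 0.11 (replicate 2).

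The precursor gene npb was low in the mutants. Mutant replicates 1 and 2 held 8.88 and 11.0 TPM of npb, against 93.4 and 132 TPM in wild-type replicates 1 and 2. The groups did not overlap: the lower wild-type value was 8.53 times the higher mutant value. Means were 9.92 ± 1.46 TPM in the mutants and 113 ± 27.3 TPM in the wild type (SD, n = 2 each), 11.4-fold lower in the mutants on the TPM scale. On the log2(TPM + 1) scale the difference was -3.37. Replicates of npb lay close, the higher being 1.23 times the lower among mutant samples and 1.41 times among wild-type samples. In terms of rank, npb was the 7307th and 6482nd most abundant gene of 26267 in the mutants, and the 1896th and 1360th in the wild type.

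The precursor gene cart3 went the other way. Mutant replicates 1 and 2 held 43.4 and 63.9 TPM of cart3, against 9.76 and 7.51 TPM in wild-type replicates 1 and 2. Here too the groups did not overlap, and the lower mutant value was 4.45 times the higher wild-type value. Means were 53.6 ± 14.5 TPM in the mutants and 8.63 ± 1.59 TPM in the wild type (SD, n = 2 each), 6.21-fold higher in the mutants on the TPM scale and a difference of 2.49 on the log2(TPM + 1) scale. The higher replicate was 1.47 times the lower among mutant samples and 1.3 times among wild-type samples. By rank cart3 was the 3222nd and 2381st gene in the mutants, and the 7767th and 8154th in the wild type.

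These differences are the values on which both genes were chosen, so they carry no test here. Tests were run on the 14217 genes that averaged at least 1 TPM over the 4 samples. Of these npb had the 18th lowest difference and cart3 the 12th highest. Groups without overlap were common, at 53.2% of the tested genes, with the mutants lower for 34.9% and higher for 18.2%. Gaps between replicates were small beside these differences. On the log2(TPM + 1) scale npb replicates were 0.27 apart in the mutants and 0.49 in the wild type, and cart3 replicates 0.55 apart in the mutants and 0.34 in the wild type. The median tested gene had a gap of 0.27 in the mutants and 0.29 in the wild type. The median difference of all tested genes was -0.16. In a bulk sample, fewer cells that express a gene and less RNA per cell cannot be told apart.

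**Figure D1:**
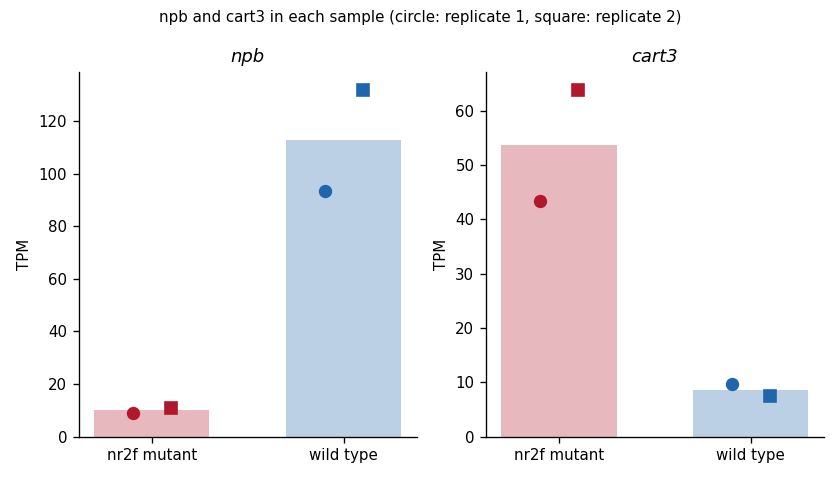
TPM of npb (left) and cart3 (right) in each sample; bars are means of 2 samples, circles replicate 1 and squares replicate 2, with mutant samples left of wild-type samples. The mutant npb values, 8.88 and 11.0 TPM, stand below the wild-type values of 93.4 and 132 TPM, and the mutant cart3 values, 43.4 and 63.9 TPM, stand above the wild-type values of 9.76 and 7.51 TPM.

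The balance of both peptides' transcripts was thus opposite in the groups. In mutant cells cart3 was 4.89 and 5.83 times as abundant as npb in replicates 1 and 2, on the TPM scale, which is per transcript length. In wild-type cells npb was 9.57 and 17.6 times as abundant as cart3. This ratio is formed within each sample and does not change when all values of a sample are multiplied by 1 factor. Quantile normalization can change it. That the ratio moved toward cart3 in the mutants follows from choosing npb as a fall and cart3 as a rise.

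The other cart genes were at 0, apart from cart4 in 1 sample. The gene cart1 (ENSDARG00000070930) and both gene IDs of cart2 (ENSDARG00000045832 and ENSDARG00000112535) were listed at 0 in all 4 samples. The gene cart4 (ENSDARG00000070142) was at 0 in both mutant samples and in wild-type replicate 1, with 6.77 TPM in wild-type replicate 2. A further row, which the table names CARTPT (ENSDARG00000104363) and which was looked for after the values were seen, was also listed at 0 in all 4. Of the 3 other cart genes 1, cart4, was high enough to be tested, and only through its value in wild-type replicate 2. It did not pass (log2 fold change -1.48 ± 0.90, limma adjusted p = 0.40). Its difference was -2.96 without wild-type replicate 1 and 0 without wild-type replicate 2, so it rested on that 1 sample. Of the cart genes, cart3 was the only one with a value above 0 in every sample.

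Receptor transcripts were at or close to 0. The Npb receptor gene npbwr2a was at 0 in both mutant samples and in wild-type replicate 1, and at 0.16 TPM in wild-type replicate 2. The orphan receptor gene gpr160, whose mammalian counterpart has been proposed as a CART receptor, was at 0 in both mutant samples and at 0.055 and 0.053 TPM in wild-type samples. Of 5 receptor names looked for, these 2 have a row with a value, and 0 reached the level for testing.

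Set beside other neuropeptide precursors, npb and cart3 were among the more abundant in both groups. With 73 further precursor genes and the other cart genes there were 78 precursors with a value. Of the 78, 12 stood at 1 TPM or more in each mutant sample and 18 in each wild-type sample, so a high position is among few expressed genes. In mutant cells cart3 was the 2nd most abundant of the 78 in both replicates, and npb the 7th and 4th. In wild-type cells npb was the most abundant in both replicates and cart3 the 6th. Of the summed TPM of the 78 genes, cart3 made up 23.1% and 27.4% in the mutants, against 3.55% and 2.48% in the wild type. For npb the shares were 4.72% and 4.69% in the mutants and 33.9% and 43.6% in the wild type. That positions and shares of npb and cart3 moved in opposite directions between groups follows from choosing npb as a fall and cart3 as a rise. The sum without npb and cart3 was 136 and 159 TPM in the mutants, against 172 and 163 TPM in the wild type. With them the sum was 188 and 233 TPM in the mutants, against 275 and 303 TPM in the wild type.

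Most other precursors were hardly present. Of the 76 besides npb and cart3, 28 were listed at 0 in all 4 samples and 61 had a mean under 1 TPM, so 15 (19.7%) reached the level for testing, against 54.1% of all genes. Those at 0 throughout include the genes of neuropeptide Y (npy), vasoactive intestinal peptide (vip), oxytocin (oxt) and vasopressin (avp), all chosen after their values were seen. The count of the 78 precursors at 0 was 55 and 56 in the mutants, against 41 and 40 in the wild type. As shares of the 78 these are 70.5% and 71.8% in the mutants, against 52.6% and 51.3% in the wild type. Over all genes the share at 0 was also higher in the mutants, by fewer percentage points, at 24.7% and 29.7%, against 22.3% and 21.9% in the wild type. All genes were not matched in level to the precursors, most of which had a mean under 1 TPM. Whether precursors differed here from other genes of their level was not tested.

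**Figure D2:**
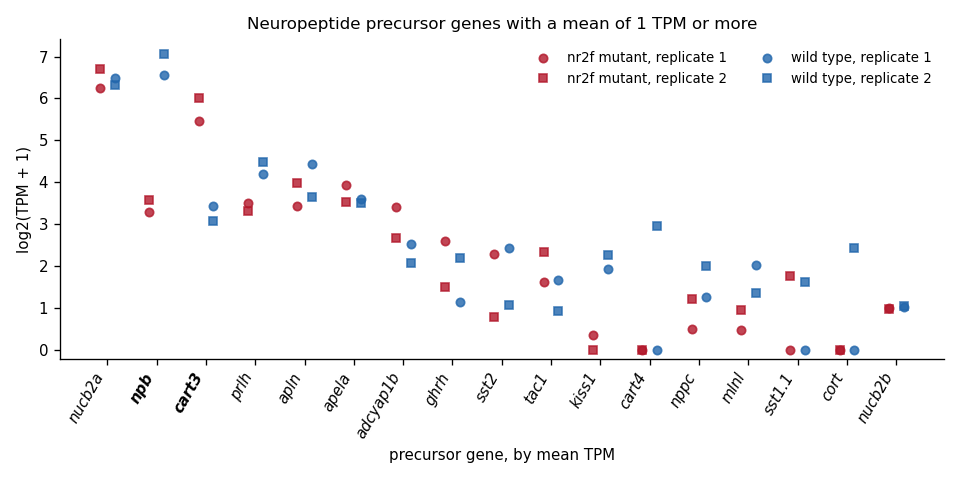
Level on the log2(TPM + 1) scale of the 17 neuropeptide precursor genes that averaged at least 1 TPM, in order of mean TPM; circles are replicate 1 and squares replicate 2, with mutant samples left of wild-type samples for each gene. The mutant cart3 values (43.4 and 63.9 TPM) and the wild-type npb values (93.4 and 132 TPM) stand near the level of nucb2a, and most other precursors lie far lower.

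Among the 73 further precursors, 14 were tested and 1, kiss1, changed, where 2.95% of all tested genes fell and 1.13% rose. The kisspeptin gene kiss1, whose peptide acts on reproductive neurons in mammals, stood at 0.29 TPM in mutant replicate 1 and was listed at 0 in mutant replicate 2, against 2.85 and 3.82 TPM in the wild type. Only its wild-type values brought kiss1 over the 1 TPM filter, so a fall was the only change its test could show. It fell by 1.92 ± 0.43 on the log2(TPM + 1) scale (limma adjusted p = 0.040), but leaving out mutant replicate 1, mutant replicate 2 or wild-type replicate 2 ended that call (adjusted p = 0.12, 0.23 and 0.11). The median difference of the 14 was -0.13, beside -0.16 for all tested genes, and their range was -1.92 to 0.74.

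The 5 most abundant precursors that did not pass were nucb2a, prlh, apln, apela and adcyap1b. The nucleobindin gene nucb2a, precursor of nesfatin in mammals, stood at 75.4 and 103 TPM in the mutants and 88.2 and 78.9 TPM in the wild type (log2 fold change 0.08 ± 0.18, limma adjusted p = 0.83; negative without mutant replicate 2). The prolactin-releasing hormone gene prlh stood at 10.3 and 8.94 TPM in the mutants, below 17.5 and 21.2 TPM in the wild type (log2 fold change -0.93 ± 0.27, limma adjusted p = 0.095). The apelin gene apln overlapped between groups, at 9.79 and 14.7 TPM in the mutants and 20.6 and 11.5 TPM in the wild type. So did apela, which encodes an early embryonic ligand of the apelin receptor, at 14.3 and 10.6 TPM in the mutants and 11.2 and 10.5 TPM in the wild type. The gene adcyap1b, of the pituitary adenylate cyclase-activating peptide, stood at 9.61 and 5.34 TPM in the mutants, above 4.73 and 3.23 TPM in the wild type (log2 fold change 0.74 ± 0.38, limma adjusted p = 0.31).

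**Figure D3:**
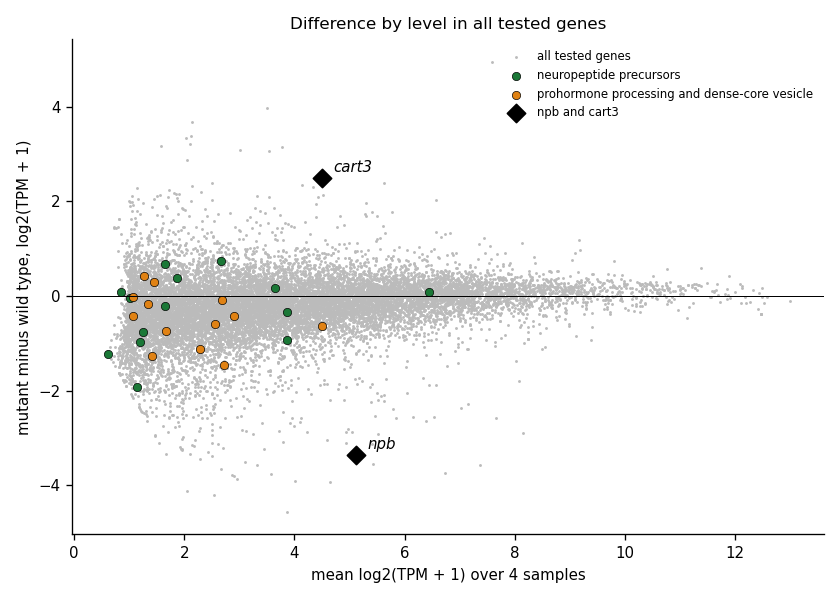
Difference, mutant minus wild type, against mean level, both on the log2(TPM + 1) scale, for the 14217 tested genes (grey), with the 14 tested neuropeptide precursors (green), 13 tested genes of prohormone processing and dense-core vesicles (orange) and npb and cart3 (black). The members, which were chosen on this difference, lie at -3.37 and 2.49, and the 14 other precursors lie between -1.92 and 0.74.

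The machinery that matures and stores neuropeptides was present at low levels. Of 32 genes of prohormone processing and dense-core vesicles with a value, 13 were tested and 0 rose or fell in limma at an adjusted p under 0.05, against 4.08% of all tested genes called in either direction; 4 had an unadjusted p under 0.05, and the smallest adjusted p was 0.087. Their median difference was -0.43, beside -0.16 for all tested genes, and the mutants were the lower group, without overlap, for 7 of the 13, against 34.9% of all tested genes. Their summed level was 52.7 and 54.2 TPM in the mutants, against 88.8 and 75.6 TPM in the wild type. The vesicle-docking GTPase gene rab27a was the most abundant, at 18.7 and 15.8 TPM in the mutants and 30.8 and 24.0 TPM in the wild type (log2 fold change -0.63 ± 0.25, limma adjusted p = 0.19). Its relative rab27b stood at 1.74 and 4.81 TPM in the mutants, against 8.78 and 11.2 TPM in the wild type (log2 fold change -1.45 ± 0.41, limma adjusted p = 0.087).

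The amidating enzyme gene pam stood at 4.40 and 3.29 TPM in the mutants and 7.25 and 5.28 TPM in the wild type. The convertase gene pcsk7 stood at 4.73 and 6.23 TPM in the mutants and 8.23 and 7.10 TPM in the wild type, and pcsk5b at 5.42 and 4.98 TPM in the mutants and 6.51 and 4.82 TPM in the wild type; none of these passed (limma adjusted p = 0.38, 0.49 and 0.90). The convertases of neuroendocrine granules, chosen after their values were seen, were at or near 0. The gene pcsk1 had 0.047 and 0.14 TPM in the mutants and was listed at 0 in both wild-type samples, and pcsk2 was at 0 in both mutant samples and in wild-type replicate 2 and had 0.12 TPM in wild-type replicate 1. Carboxypeptidase E (cpe), which trims the cut peptides, had 1.07 and 0.17 TPM in the mutants and 1.27 and 0.40 TPM in the wild type. The cart3 values of 43.4 and 63.9 TPM in the mutants and the npb values of 93.4 and 132 TPM in the wild type thus stood beside little RNA of these convertases.

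Markers of central nervous system neurons went both ways. The 28 markers, all with a value, summed to 244 and 252 TPM in the mutants, against 389 and 312 TPM in the wild type; 16 were tested, 0 rose and 1, tubb5, fell, where 1.13% of all tested genes rose and 2.95% fell. The median difference of the 16 was 0.11, opposite in sign to the change of the sum; without overlap, the mutants were higher for 4 and lower for 2, against 18.2% and 34.9% of all tested genes. The pan-neuronal gene elavl3, added with its values known, had 59.7 and 36.8 TPM in the mutants and 72.6 and 43.6 TPM in the wild type, with overlap. The 16 peripheral neuron markers with a value summed to 41.9 and 44.2 TPM in the mutants and 46.6 and 64.9 TPM in the wild type, and 0 of 10 tested were called in limma, against 4.08% of all tested genes (2 at an unadjusted p under 0.05; median difference -0.55). The 20 markers of central nervous system progenitors summed to 660 and 536 TPM in the mutants and 597 and 544 TPM in the wild type. The part of neurons in the npb and cart3 differences was not tested.

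The genes whose profile over the 4 samples lay nearest to npb were ncf1, cfd, nr2f5, fah and samsn1a, named in order of distance. Likeness was the Euclidean distance between log2(TPM + 1) profiles centred on each gene's mean, over 4 samples and 9415 other genes that averaged at least 5 TPM, and with so few samples it is a description only. The distances ran from 0.26 for ncf1 to 0.50 for samsn1a. The NADPH oxidase subunit gene ncf1, a gene of phagocytes, stood at 2.62 and 2.51 TPM in the mutants, against 27.9 and 38.3 TPM in the wild type. The complement factor D gene cfd stood at 0.24 and 0.49 TPM in the mutants, against 8.32 and 12.1 TPM in the wild type. The adaptor gene samsn1a stood at 2.31 and 2.64 TPM in the mutants, against 18.9 and 33.7 TPM in the wild type. The tyrosine breakdown enzyme gene fah stood at 2.30 and 1.55 TPM in the mutants, against 28.8 and 38.2 TPM in the wild type. In all of these, as in npb, both mutant values were a small fraction of both wild-type values. That follows from choosing them by likeness to npb.

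Myeloid markers moved with npb. The 18 markers, all with a value, summed to 59.9 and 75.8 TPM in the mutants, against 230 and 353 TPM in the wild type. Of 13 tested, 9 fell and 0 rose, against 2.95% and 1.13% of all tested genes. Their median difference was -2.33, and the mutants were the lower group, without overlap, for 11, against 34.9% of all tested genes. The myeloid regulator gene spi1b, added with its values known, had 6.08 and 5.59 TPM in the mutants, against 41.1 and 43.9 TPM in the wild type (log2 fold change -2.67 ± 0.25, limma adjusted p = 8.9e-04). The macrophage receptor gene marco was listed at 0 in all 4 samples and 5 of the 18 were at 0 in both mutant samples. The neutrophil gene mpx and the gene lyz were also added with their values known. The former had 0.13 TPM and 0 in the mutants and 0 and 0.35 TPM in the wild type. The gene lyz was listed at 0 in both mutant samples, with 0.52 and 8.03 TPM in the wild type, and did not pass (limma adjusted p = 0.22). Only its wild-type values brought lyz over the 1 TPM filter, so a fall was the only change its test could show. It counts among the 11 markers lower without overlap. The part of these cells in the npb difference was not tested.

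Muscle markers moved with npb as well, and the sums of epidermis and hatching gland markers were high in wild-type replicate 2 alone. The 24 muscle markers summed to 340 and 141 TPM in the mutants, against 946 and 3021 TPM in the wild type; of 20 tested, 5 fell and 0 rose, against 2.95% and 1.13% of all tested genes. The median difference of muscle markers was -2.48, and the mutants were the lower group, without overlap, for 17 of 20, against 34.9% of all tested genes. The 19 epidermis and periderm markers summed to 840 and 578 TPM in the mutants and 682 and 5268 TPM in the wild type, and the 7 hatching gland markers with a value to 276 and 335 TPM in the mutants and 335 and 1205 TPM in the wild type. Of 18 epidermis markers tested, 1, cdh1, fell (limma adjusted p = 0.045) and 0 rose, against 2.95% and 1.13% of all tested genes. Their median difference was -1.24, and the mutants were lower without overlap for 5 and higher for 1, against 34.9% and 18.2% of all tested genes. Of 7 hatching gland markers tested 0 were called, against 4.08% of all tested genes, and the median difference was -1.79. The sums of endothelial markers (286 and 381 TPM in the mutants, 300 and 219 TPM in the wild type) and of notochord and floor plate markers (50.8 and 131 TPM in the mutants, 68.0 and 49.7 TPM in the wild type) overlapped between groups. Gene by gene, 15 endothelial markers were tested; 2 fell and 1 rose, against 2.95% and 1.13% of all tested genes (8 at an unadjusted p under 0.05), the median difference was -0.82, and the mutants were the lower group, without overlap, for 10, against 34.9% of all tested genes. The part of muscle, epidermis, hatching gland and endothelial cells in the npb difference was not tested. Without wild-type replicate 2 the npb difference was -3.12, and without wild-type replicate 1 it was -3.61, on the log2(TPM + 1) scale.

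Beside cart3, the marker sums that were higher in both mutant samples than in both wild-type samples were those of hindbrain and otic vesicle. The 14 hindbrain markers with a value summed to 340 and 255 TPM in the mutants, against 233 and 179 TPM in the wild type. Of 13 tested, 1, egr2b, rose and 0 fell, against 1.13% and 2.95% of all tested genes, and the median difference was 0.40. An unadjusted limma p under 0.05 was found for 4 of them. Without overlap, the mutants were higher for 6 of the 13 and lower for 1, against 18.2% and 34.9% of all tested genes. The 17 otic vesicle markers summed to 706 and 610 TPM in the mutants, against 556 and 473 TPM in the wild type. Most of that sum was sox10, which is also a neural crest marker. It held 590 and 461 TPM in the mutants and 411 and 318 TPM in the wild type. Without sox10 the otic sums overlapped between groups. In limma 0 of 12 tested otic markers were called, against 4.08% of all tested genes (4 at an unadjusted p under 0.05). Their smallest adjusted p was 0.10, and their median difference was 0.20. The hindbrain gene egr2b, added with its values known, had 23.3 and 16.8 TPM in the mutants, against 5.57 and 2.56 TPM in the wild type. Whether cells of the hindbrain or ear had a part in the cart3 difference was not tested. Without mutant replicate 1 the cart3 difference was 2.76, and without mutant replicate 2 it was 2.21.

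**Figure D4:**
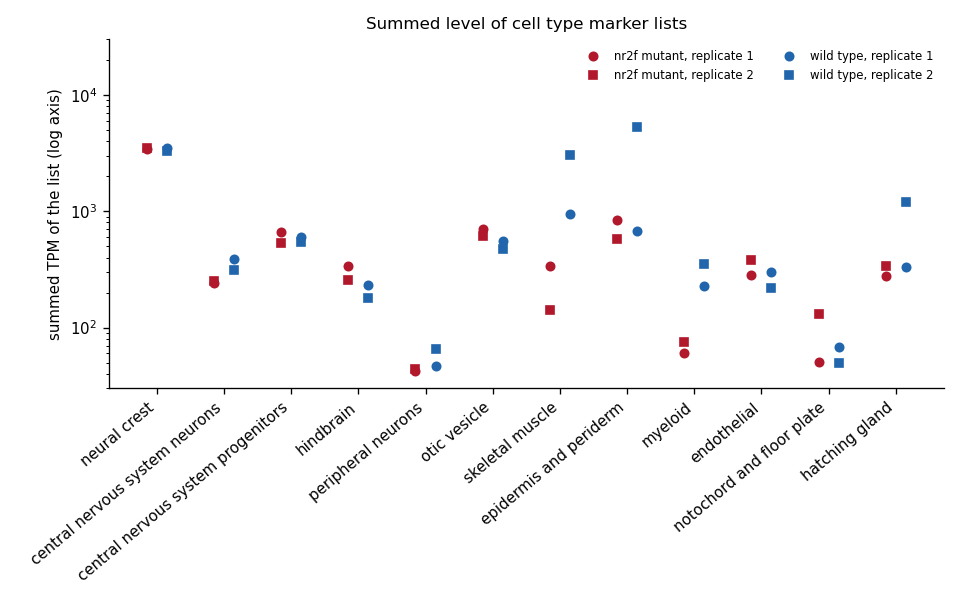
Summed TPM of each cell type marker list in each sample, on a log axis; circles are replicate 1 and squares replicate 2, with mutant samples left of wild-type samples. The myeloid sums (59.9 and 75.8 TPM in the mutants, 230 and 353 TPM in the wild type) separate in the direction of npb. So do the sums of muscle, central nervous system neurons and peripheral neurons. The hindbrain and otic sums separate more narrowly in the direction of cart3, the otic sums only with sox10 in the list.

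The genes nearest in profile to cart3, leaving out clone names, were mpdu1b, coq9, fxyd1, LOXL4 and crygn2, at distances from 0.48 to 0.69. The glycosylation gene mpdu1b stood at 41.7 and 52.8 TPM in the mutants, against 13.1 and 7.35 TPM in the wild type. The coenzyme Q gene coq9 stood at 40.9 and 45.9 TPM in the mutants, against 12.6 and 6.97 TPM in the wild type. Both lie near the level of cart3 in each group. The gene fxyd1, whose mammalian counterpart regulates the sodium pump, stood at 109 and 115 TPM in the mutants and 17.7 and 23.9 TPM in the wild type. The lysyl oxidase-like gene LOXL4 had 20.1 and 25.5 TPM in the mutants, against 5.80 and 5.18 TPM in the wild type, and the crystallin gene crygn2 31.8 and 49.6 TPM in the mutants, against 3.74 and 3.47 TPM in the wild type. The single nearest feature was CABZ01088271.1, a clone name, at a distance of 0.31, with 39.8 and 48.2 TPM in the mutants and 8.39 and 7.74 TPM in the wild type.

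Genes next to npb and cart3 on the chromosome were read from the order of protein-coding genes in RefSeq (assembly GRCz12tu, not the build of the table, so no positions are given), taking the nearest 3 on each side with a value in the table; this look was added after the values of npb and cart3 were known. Next to npb lies gnav1, which encodes a G protein alpha subunit and was also low in the mutants. It stood at 5.10 and 4.08 TPM in the mutants, against 20.6 and 24.1 TPM in the wild type (log2 fold change -2.06 ± 0.29, limma adjusted p = 0.0055); leaving out mutant replicate 2 ended the call (adjusted p = 0.061). The gene after it, pcyt2, an enzyme of phospholipid synthesis, stood at 19.9 and 17.6 TPM in the mutants and 35.1 and 25.2 TPM in the wild type and did not pass (limma adjusted p = 0.19). The glucagon precursor gene gcga, which follows, was at 0 in both mutant samples and had 0.065 and 0.15 TPM in the wild type.

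On the other side of npb, the anion transporter gene slc26a11 stood at 4.16 and 0.71 TPM in the mutants and 5.74 and 6.12 TPM in the wild type (limma adjusted p = 0.21), and mid1ip1b at 2.82 and 1.18 TPM in the mutants and 3.13 and 4.17 TPM in the wild type (0.39). The tetraspanin gene tspan7, which lies between them, had 91.2 and 88.3 TPM in the mutants and 82.4 and 80.4 TPM in the wild type (limma adjusted p = 0.62). Of 6 neighbours of npb, then, 1 fell and 0 rose, where 2.95% of all tested genes fell, and 5 of the 6 were tested. The unadjusted limma p was 0.036 for slc26a11 and 0.029 for pcyt2. All of the 6 but tspan7 were lower in both mutant samples than in both wild-type samples, as were 34.9% of all tested genes.

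No tested neighbour of cart3 passed the test. The nearest on one side, cdkn2aip, had 11.5 and 11.1 TPM in the mutants and 11.1 and 7.40 TPM in the wild type. The next, the gamma-tubulin complex gene tubgcp4, had 17.3 and 12.6 TPM in the mutants and 12.2 and 10.5 TPM in the wild type, and the DNA damage response gene tp53bp1 had 31.2 and 26.0 TPM in the mutants and 35.8 and 27.5 TPM in the wild type. On the other side, past 2 RefSeq genes without a value, snai3 and the cadherin gene cdh31 were under 1 TPM in all samples, and the ubiquitin ligase gene rnf166 had 2.95 and 5.53 TPM in the mutants and 3.43 and 1.51 TPM in the wild type. The 4 tested neighbours of cart3 had limma adjusted p-values of 0.46 to 0.77, and 0 had an unadjusted p under 0.05.

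**Figure D5:**
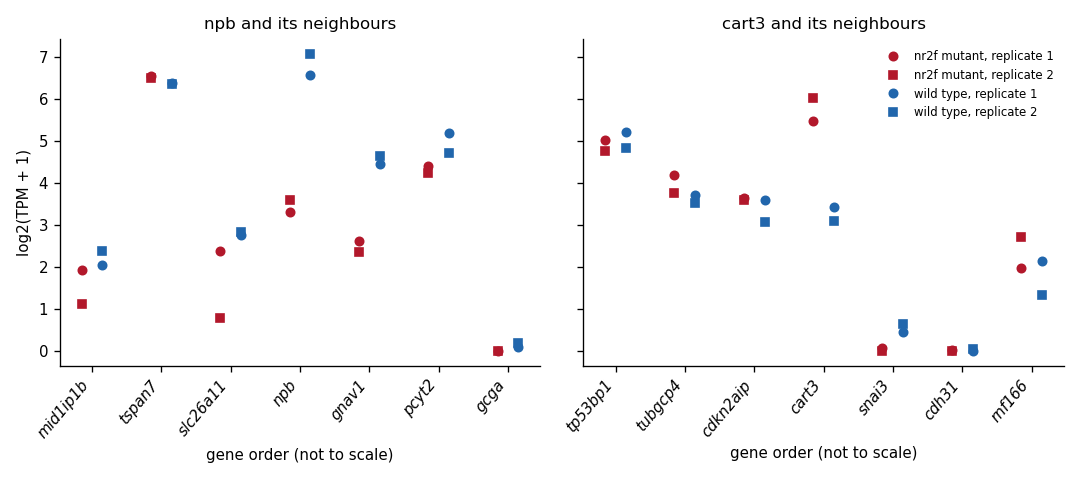
Level on the log2(TPM + 1) scale of npb (left) and cart3 (right) and of the nearest 3 genes with a value on each side, in RefSeq order and not to scale; circles are replicate 1 and squares replicate 2, with mutant samples left of wild-type samples. Beside npb, gnav1 is also lower in the mutants (5.10 and 4.08 TPM, against 20.6 and 24.1 TPM), and the other neighbours except tspan7 are lower by less. The neighbours of cart3 show no gap like that of cart3.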

How the data were processed

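The authors deposited 1 table of TPM per Ensembl transcript, with a column for each of the 4 samples; the submitters' processing notes name kallisto and the genome build GRCz11; versions and other steps are not given in the sources used here. Of 65905 transcripts, 57775 had a value. RNA was amplified as cDNA with the SMARTer kit, per the labels' protocols. Read depth is unknown, so no counting interval, floor or count model was used.

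Transcript TPM was summed by gene name, or by gene ID where blank. Values were analysed as log2(TPM + 1), which understates the change of low genes. Genes averaging at least 1 TPM were compared with limma 3.58.1 in R 4.3.3 (eBayes with trend and robust, statmod 1.5.0), mutant minus wild type, two-sided, with Benjamini-Hochberg adjustment over 14217 genes, of which 161 rose and 419 fell at an adjusted p under 0.05. The procedure was tested on simulated data whose noise took the variances of this same fit, so that test cannot judge the calls made here.

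The members, lists, naming rule and tests were chosen with earlier results of these data known. Named genes were npb, cart3, the other cart genes, the receptors, nr2f5 and nr2f2, the 5 genes nearest in profile to each member, and of the precursor and processing lists those that passed and the 5 most abundant that did not. Clone names, including clone accessions, were left out of the nearest 5. List genes were matched by exact name: 73 of 89 precursor names, 32 of 36 processing names and 2 of 5 receptor names had a value.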

Additional observations from a re-analysis of the deposited data

How the results depend on the processing

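The npb difference stayed between -3.61 and -3.12 and the cart3 difference between 2.21 and 2.76 when 1 sample was left out. With a pseudocount of 5 TPM they were -2.96 and 2.09. Neither changed sign under any scaling, pseudocount or gene unit tried. Both genes were chosen for large differences in these same samples, so a kept sign is no independent check of them.

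Over all genes, limma called 0 with no filter on low values (3448 at an unadjusted p under 0.05; 3657 genes at 0 in every sample enter there) and 0 without trend and robust (2531 unadjusted), against 580; when 1 sample was left out the number ran from 110 (without mutant replicate 2) to 647 (without wild-type replicate 1). Median-ratio scaling gave 360 rises and 398 falls and quantile normalization 235 and 254, against 161 and 419. Of the precursors, 0 were called with no filter, a mean of 5 TPM or more (kiss1 is then not tested) or a pseudocount of 0.1 TPM. The same held with quantile normalization, the replicate block or no trend and robust. When 1 sample was left out the kiss1 difference ran from -2.11 to -1.74. The precursor gene cort was tested only through its 4.43 TPM in wild-type replicate 2, and was listed at 0 in the other samples. Of the other cart genes only cart4 was tested, and its difference ran from -2.96 to 0 when 1 sample was left out. Some genes that did not pass changed sign, with the cause not tested. Under median-ratio scaling nr2f2 stood at 0.020 and pcsk5b at 0.063, and pcsk5b at 0.25 with quantile normalization. When 1 sample was left out, nr2f2 ran from -0.35 to 0.026, elavl3 from -0.62 to 0.10, nucb2a from -0.14 to 0.30, apln from -0.73 to 0.059, apela from -0.025 to 0.37 and pcsk5b from -0.28 to 0.090.

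Samples with the same replicate number did not deviate together (r = -0.01 across genes), so the numbers were not taken as pairs; with the replicate block 565 genes were called.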
